A study of Mus musculus with 24 samples.

Results

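The PICK1i group of a hypothalamus RNA-seq experiment holds 8 libraries, and in 4 of them RNA of the mitochondrial genome made up a larger share of the counts than in any other library of the series. The mitochondrial share of a library was the summed counts of genes whose symbol starts with mt- divided by the library total. PICK1i replicates 1, 2, 5 and 6 had a share of 13% or more and are called the high set. Replicates 3, 4, 7 and 8 had a share below 13% and are called the low set. The comparison is therefore 4 against 4 of the 8 PICK1i libraries, out of 24 libraries in the series. Both sets received the same treatment. A response to the compound that varied between mice and other differences among these libraries cannot be told apart.

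All 24 libraries are poly(A) RNA of whole hypothalamus from mice with diet-induced obesity, with a mean body weight of 53 g and housed in pairs. PICK1i stands for mPD5, given at 56 mg/kg, which inhibits the scaffold protein PICK1. The other groups were PSD-95i, which stands for UCCB01-147 at 25 mg/kg, an inhibitor of the synaptic scaffold PSD-95 (gene Dlg4), and isotonic saline, with 8 libraries each. Each mouse was injected daily for 5 days and killed 2 h after the last injection. The labels give the targets and the protocol the compounds, which were paired here by their known targets. The labels used here state no sex, age or strain, nor which mouse each library came from. The protocol gives 6 saline animals, whereas the labels give 8 saline libraries, all of which were used. Separate mice were assumed, and p-values measure only the spread between these libraries.

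The mitochondrial genome encodes a few subunits of the respiratory chain, its own ribosomal RNAs and a set of transfer RNAs, and its messengers are short, intronless and polyadenylated. The remaining subunits of the respiratory complexes, all mitochondrial ribosomal proteins and the factors that import and assemble them are encoded in the nucleus. Respiratory complex I oxidises NADH, complexes III and IV pass electrons to oxygen, and complex V makes ATP. In neurons these complexes supply most of the energy for ion pumping and synaptic signalling. Nuclear genes of the respiratory chain are activated by factors such as NRF1, GABPA (an ETS factor) and the oestrogen-related receptors, with the coactivator PGC-1α.

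In the high set the mitochondrial share was 16.61%, 13.99%, 13.47% and 13.68% in replicates 1, 2, 5 and 6. In the low set it was 11.17%, 9.78%, 8.7% and 10.76% in replicates 3, 4, 7 and 8. Values of the sets are given in these orders from here on. The means were 14.44% ± 1.464 (SD, n = 4) and 10.1% ± 1.103 (SD, n = 4), which is 4.34 percentage points apart. Replicate 5 at 13.47% lay just inside the 13% line, and the nearest library below it was replicate 3 at 11.17%. Saline libraries had 9.72% ± 0.820 (SD, n = 8, lowest 7.88%, highest 10.68%) and PSD-95i libraries 9.68% ± 0.628 (SD, n = 8, lowest 8.51%, highest 10.41%). The low set thus lay near both other groups, with replicates 3 and 8 above their highest value, and the high set lay above all other libraries. These shares chose the sets, so they are a description and were not tested. Counting error was small beside these gaps: the 95% Wilson interval of replicate 5 ran from 13.44% to 13.5%, and it covers counting error only.

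**Figure D1:**
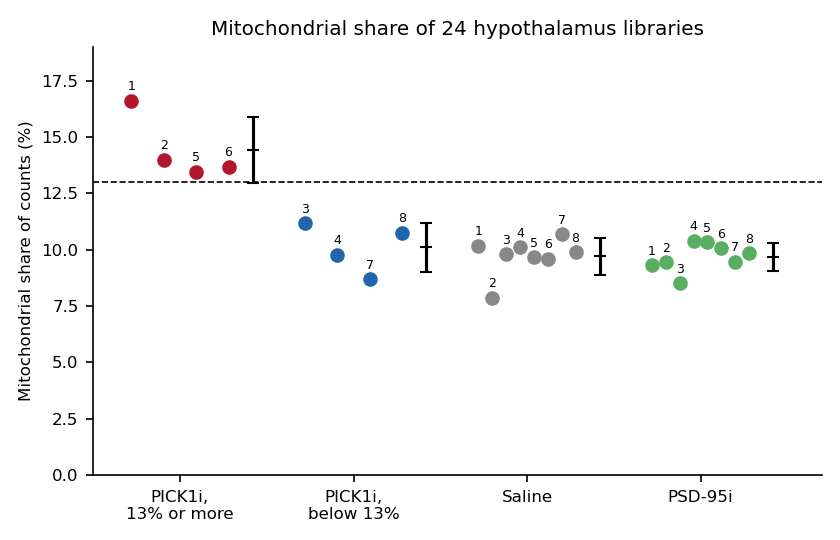
Mitochondrial share of counts (%) in each of the 24 libraries, with replicate numbers beside the points, the 13% line dashed, and the mean ± SD of each set or group in black. The 4 high PICK1i libraries lie between 13.47% and 16.61%, and all other libraries lie at or below 11.17%.

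Within the mitochondrial counts the make-up was alike between the sets for the main messengers. The table has 37 mitochondrial genes, 27 of them with counts. mt-Co1, a complex IV subunit, made up 21.2%, 21.9%, 21.1% and 21.7% of the mitochondrial counts in the high set, and 21.4%, 21.1%, 23.1% and 22% in the low set. mt-Rnr2, the large ribosomal RNA, made up 9.93%, 6.91%, 6.26% and 5.34% in the high set, and 7.08%, 8.14%, 7.03% and 5.68% in the low set. Replicate 1 thus had the highest mt-Rnr2 proportion of the PICK1i libraries, and the sets overlapped for both genes. mt-Atp8, a small complex V subunit, varied most in relative terms, from 0.126% in replicate 2 to 1.06% in replicate 3.

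The high set also had fewer counts in all. Library totals were 4762703 to 6759719 in the high set and 7076186 to 9228858 in the low set, with no overlap, and 5727283 to 8594366 in the saline and PSD-95i libraries together. Replicates were numbered in library order, and the high set consists of the consecutive library pairs 1 and 2 and 13 and 14, while the low set consists of 5 and 6 and 19 and 20. The labels do not say whether such neighbours shared a cage or a handling step. Some libraries stand apart in tissue content. PICK1i replicate 6, in the high set, had high cortex and hippocampus markers, and saline replicates 2 and 3 had pituitary transcripts, so results that rest on them are given with and without them. Hypothalamus markers such as Pomc, Agrp, Avp, Oxt and Hcrt were detected in every PICK1i library, with the lowest Pomc, Agrp, Avp and Oxt in replicate 6. In bulk RNA, fewer cells of a type and less RNA per cell cannot be told apart.

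Nuclear genes separated the sets broadly. Mitochondrial genes were left out of the test, of the totals and of the scaling, so that the share itself could not move the nuclear values. Of 15174 nuclear genes tested by edgeR's quasi-likelihood test, 2516 (16.6%) differed between the sets at a Benjamini-Hochberg adjusted p under 0.05. Of these, 1060 (6.99%) were higher and 1456 (9.6%) were lower in the high set. A further description that needs no model counted genes without overlap between the sets: all 4 high libraries lay above all 4 low libraries for 1425 genes (9.39%) and below them for 1767 genes (11.6%). The differences were small, with a median size of 0.429 (log2) among genes called higher and 0.447 among genes called lower, and only 28 and 62 of them exceeded 2-fold. The sets were chosen by a value measured in these same libraries, so these p-values describe how far apart the 2 sets lie, not a cause. The biological coefficient of variation was 12.1%. The number called depended on single libraries: it was 988 without replicate 7, 1164 without replicate 4 and 1351 without replicate 5, and at least 2514 of the 2516 genes kept their sign when any 1 library was left out. Those fits reuse the libraries that called the genes, so the kept signs are a description only.

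Respiratory chain subunits encoded in the nucleus were among the most uniformly higher genes. Of 37 complex I subunits tested, 31 rose and 0 fell, with a median difference of 0.381 (log2, high minus low), against 0.015 for all nuclear genes. Of 43 subunits of complexes II to V, 28 rose and 1 fell, with a median of 0.368. The called shares of these lists were 83.8% and 67.4%, beside 16.6% of all nuclear genes. These genes are short, and with an offset for transcript length and GC content the medians were 0.096 and 0.068, with 2 and 7 genes called higher by edgeR. The mean level of the complex I list in a library, as log2 CPM relative to its mean over 24 libraries, was 0.409, 0.298, 0.399 and 0.269 in the high set. It was 0.031, -0.034, -0.094 and 0.054 in the low set, -0.291 to 0.001 in saline and -0.182 to 0.037 in PSD-95i libraries. The whole high set stood above the range of both other groups. Of the low set, the value of 0.054 also lay above that range, by less, and the others lay within it.

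Cox7c, a small subunit of cytochrome c oxidase (chr13:86044816-86046904 on GRCm38), had the smallest p among them. Its level was 114, 114, 117 and 115 CPM (counts scaled to a common nuclear total with TMM factors) in the high set and 81, 67.5, 73.8 and 70.8 CPM in the low set. Saline libraries ranged from 59 to 83 CPM with a median of 76.3, and PSD-95i libraries from 66.6 to 82.9 CPM with a median of 73.2. All 4 high libraries were above every other library, and the log2 difference between the sets was 0.66 ± 0.08 (SE, adjusted p = 0.00182, edgeR). Ndufa3, an accessory subunit of complex I (chr7:3617373-3620327), was at 77.4, 81.3, 75.8 and 77.6 CPM in the high set and 54.1, 52.4, 53 and 52 CPM in the low set. The sets did not overlap, both were tight, and the log2 difference was 0.56 ± 0.07 (SE, adjusted p = 0.00182, edgeR). Atp5e, the epsilon subunit of ATP synthase (chr2:174461072-174464105), was at 68.6, 64, 71.2 and 56.3 CPM in the high set and 41.9, 33, 40.3 and 40 CPM in the low set. Its log2 difference was 0.75 ± 0.10 (SE, adjusted p = 0.00216, edgeR), and the saline range was 33.1 to 48.5 CPM. The high set lay above that range, and of the low set only replicate 4 lay outside it, just below. Ndufb7 (0.55), Ndufs5 (0.49) and Ndufc1 (0.59) of complex I, Uqcrq (0.55) of complex III and Cox6c (0.54) of complex IV rose by similar log2 amounts.

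Translation genes were higher as well. Of 78 cytosolic ribosomal proteins, 57 rose (73.1%, beside 6.99% of all genes called higher) and 0 fell. Their median log2 difference was 0.412, which was 0.114 with 7 called higher under the same offset. The list mean was 0.472, 0.248, 0.296 and 0.16 in the high set and -0.088, -0.162, -0.187 and 0.048 in the low set, and saline libraries reached 0.299, so here the high set overlapped with saline. Rpl31, a protein of the large subunit (chr1:39367842-39371911), was at 243, 220, 209 and 219 CPM in the high set and 144, 136, 135 and 157 CPM in the low set. The sets did not overlap, with a log2 difference of 0.64 ± 0.08 (SE, adjusted p = 0.00182, edgeR). Rpl35a (0.56), Rpl24 (0.57), Rpl28 (0.58) and Rps28 (0.60) showed log2 differences of the same order. Ribosomal protein genes have many processed pseudogenes, and reads may be split between copies. Processed pseudogenes as a biotype had a median of 0.266, with 70 of 507 higher and 14 lower. Mitochondrial ribosomal proteins, which translate the mitochondrial messengers, rose in 22 of 77 cases (28.6%) and fell in 0, with a median of 0.224. Examples were Mrpl2 (0.54), Mrpl52 (0.63) and Mrps21 (0.51). With the same offset the median of this list was 0.078, with 6 of 77 called higher. Mrpl2 (0.24), Mrpl52 (0.10) and Mrps21 (0.08) then no longer passed by edgeR (adjusted p = 0.177, 0.634 and 0.719).

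Promoters are shown for a pair of respiratory genes of the high set and for Nalcn, a gene of the low set, because nuclear respiratory genes share activators that bind close to their starts. The bases printed end at or near the RefSeq start site and leave out annotated exons, on GRCm38.p6. All 3 genes lie on the minus strand and are written 5′ to 3′, with motif matches in capitals. They were picked after their values and matches were seen. The Ndufs5 stretch is chr4:123718203-123718436, the Atp5e stretch chr2:174464106-174464351 and the Nalcn stretch chr14:123627145-123627394.
Ndufs5: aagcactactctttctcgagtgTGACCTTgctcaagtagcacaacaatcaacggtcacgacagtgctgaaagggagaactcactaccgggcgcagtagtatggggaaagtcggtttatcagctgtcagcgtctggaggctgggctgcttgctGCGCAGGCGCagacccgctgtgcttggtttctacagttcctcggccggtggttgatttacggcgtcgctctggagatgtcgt
Atp5e: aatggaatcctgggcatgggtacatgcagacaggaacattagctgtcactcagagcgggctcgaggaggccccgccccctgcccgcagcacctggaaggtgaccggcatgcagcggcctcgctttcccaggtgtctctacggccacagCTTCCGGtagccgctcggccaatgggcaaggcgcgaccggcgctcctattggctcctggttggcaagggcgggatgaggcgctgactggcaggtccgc
Nalcn: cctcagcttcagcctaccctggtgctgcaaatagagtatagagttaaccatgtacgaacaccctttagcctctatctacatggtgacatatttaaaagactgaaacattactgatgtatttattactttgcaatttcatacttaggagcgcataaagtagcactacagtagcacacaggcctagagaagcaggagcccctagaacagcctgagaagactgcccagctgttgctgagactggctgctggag
In Ndufs5 the capitals mark a match to AAGGTCA, the oestrogen-related receptor core, on the opposite strand, and a match to the palindrome-like NRF1 motif, also on the opposite strand. In Atp5e they mark a match to CCGGAAG, an ETS motif, on the opposite strand, and the Nalcn stretch holds none of the 3 motifs.

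Over windows of 300 bases, from 250 before to 50 after the start, both strands were searched for these 3 motifs, none of which contains another. RefSeq promoters were matched by symbol for 10690 of 15150 tested symbols. The NRF1 motif was in 26.2% of 65 respiratory subunit promoters, 7.02% of 57 cytosolic ribosomal promoters and 9.89% of all matched promoters. An ETS motif was in 23.1%, 38.6% and 16.7% of them, and the receptor core in 13.8%, 5.26% and 3.04%. Among genes called higher, 12.2% held the NRF1 motif, 25.0% the ETS motif and 4.56% the receptor core, and among genes called lower 11.6%, 13.2% and 2.18%. A match describes the letters and is not a binding site.

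Among 22 regulators of mitochondrial biogenesis 0 rose and 3 fell (13.6%, near the 16.6% of all nuclear genes), namely Prkaa2 (log2 difference -0.51) and Prkaa1 (-0.36), the catalytic subunits of AMP-activated kinase, and Nrip1 (-0.49), a corepressor. With the length and GC offset Prkaa2 (-0.24), Prkaa1 (-0.13) and Nrip1 (-0.23) no longer passed by edgeR, and 0 of the 22 were called. Ppargc1a, which encodes PGC-1α, was at 21.8, 28, 35.2 and 40.6 CPM in the high set and 46.7, 35.9, 43.9 and 33.6 CPM in the low set. The sets overlapped and the log2 difference of -0.35 ± 0.17 (SE) did not pass (adjusted p = 0.167, edgeR). Esrra, an oestrogen-related receptor (0.18, adjusted p = 0.324), and Tfam, which packages and transcribes mitochondrial DNA (-0.15, adjusted p = 0.238), did not pass by edgeR either. Of 34 genes that copy, transcribe or process mitochondrial nucleic acid, 2 rose and 0 fell, which is 5.88% beside the 6.99% of all genes called higher. These were Slirp, which stabilises mitochondrial messengers (0.59), and Hsd17b10, part of the mitochondrial RNase P (0.46).

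Other mitochondrial lists held changes in both directions. Among 69 import and assembly factors 15 rose and 3 fell (26.1% called, beside 16.6% of all nuclear genes), with a median of 0.174. Uqcc2, a complex III assembly factor, rose by 0.64 (log2), while the import receptors Tomm70a (-0.63) and Tomm20 (-0.46) fell. Tomm70a was at 107, 114, 115 and 96.2 CPM in the high set and 179, 171, 173 and 149 CPM in the low set, without overlap. Of 24 genes of mitophagy and mitochondrial dynamics 2 rose and 5 fell (29.2% called). Fis1, a fission factor, rose by 0.43, and the fusion proteins Mfn2 (-0.50) and Opa1 (-0.36) fell. Antioxidant genes rose in 7 of 26 cases and fell in 1 (30.8% called). The metallothioneins Mt1 (0.51), Mt2 (0.51) and Mt3 (0.49), short metal-binding proteins, were higher and thioredoxin reductase Txnrd1 (-0.53) was lower. Glycolysis and citric acid cycle enzymes had 4 of 33 higher (12.1%) and 0 lower, with a median of 0.044, and Gapdh rose by 0.38 and Mdh2 by 0.31. With the length and GC offset Mt1 (0.06), Mt2 (0.06), Mt3 (0.04), Fis1 (0.11) and Opa1 (-0.10) no longer passed by edgeR. Neither did Gapdh (0.09), Mdh2 (0.06), Uqcc2 (0.14) and Tomm20 (-0.23), whereas Tomm70a (-0.36), Mfn2 (-0.45) and Txnrd1 (-0.42) still passed. Proteasome subunits, not mitochondrial, had 6 of 32 higher (18.8%) and 0 lower, where 6.99% of all genes were called higher.

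The gene with the largest difference among the 12 highest-ranked higher genes was Lrrc17, a secreted leucine-rich repeat protein (chr5:21543559-21575904). It was at 151, 122, 126 and 93.7 CPM in the high set and 51.1, 54.9, 64.8 and 54.6 CPM in the low set, a log2 difference of 1.13 ± 0.13 (SE, adjusted p = 0.00182, edgeR). Saline libraries ranged from 44.7 to 140 CPM and PSD-95i libraries from 47.2 to 114 CPM, so levels of both sets also occurred there. Tmsb4x, which sequesters actin monomers (0.54), and Fah, the last enzyme of tyrosine breakdown (0.62), completed the 12 with Cox7c, Ndufa3, Ndufb7, Atp5e and the ribosomal proteins Rpl31, Rpl35a, Rpl24, Rpl28 and Rps28.

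Of the 12 highest-ranked lower genes, all except Gpr165 had transcripts longer than the median of all genes tested. Epm2aip1, which encodes a laforin-interacting protein (chr9:111271929-111279093), was at 77.2, 72.5, 76.5 and 81.5 CPM in the high set and 147, 145, 162 and 123 CPM in the low set. Saline libraries had 121 to 158 CPM, so the high set lay below all of them, and the log2 difference was -0.91 ± 0.09 (SE, adjusted p = 0.00182, edgeR). Gnai1, an inhibitory G protein subunit (chr5:18265135-18360355), was at 89.6, 77.2, 91.7 and 85.2 CPM in the high set and 144, 141, 139 and 123 CPM in the low set. The log2 difference was -0.67 ± 0.08 (SE, adjusted p = 0.00182, edgeR), and the lowest saline library, at 79.6 CPM, lay inside the high set. Nalcn, the sodium leak channel that sets resting excitability (chr14:123276634-123627144), was at 97.5, 97.6, 100 and 97.6 CPM in the high set and 149, 164, 177 and 142 CPM in the low set. The 4 high libraries were nearly equal, below all saline (145 to 174 CPM) and PSD-95i libraries (151 to 187 CPM), and the log2 difference was -0.68 ± 0.08 (SE, adjusted p = 0.00182, edgeR).

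Larger falls were seen for genes of low level. Glra3, a glycine receptor subunit (chr8:55940460-56130070), was at 3.75, 3.22, 2.02 and 1.96 CPM in the high set and 7.94, 11, 10.3 and 10.4 CPM in the low set, a log2 difference of -1.84 ± 0.23 (SE, adjusted p = 0.00182, edgeR). Gpr165, an orphan receptor, was at 18.5, 11, 10.8 and 9.3 CPM and 34.3, 48.5, 58.5 and 39.6 CPM, a difference of -1.87 ± 0.21 (SE, adjusted p = 0.00182, edgeR). Neither gene overlapped between the sets, and the high set lay below the lowest saline value of 8.77 CPM for Glra3 and 43.5 CPM for Gpr165. Part of the low set lay below these saline values too, at 7.94 CPM for Glra3 and at 34.3 and 39.6 CPM for Gpr165. Dgkk (-0.83), a diacylglycerol kinase, Alg10b (-1.38), a glycosyltransferase, Hspa13 (-0.72), Ankrd50 (-0.78), Fndc3a (-0.57), Rab9b (-0.88) and Tmx4 (-0.71) made up the rest of the 12.

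**Figure D2:**
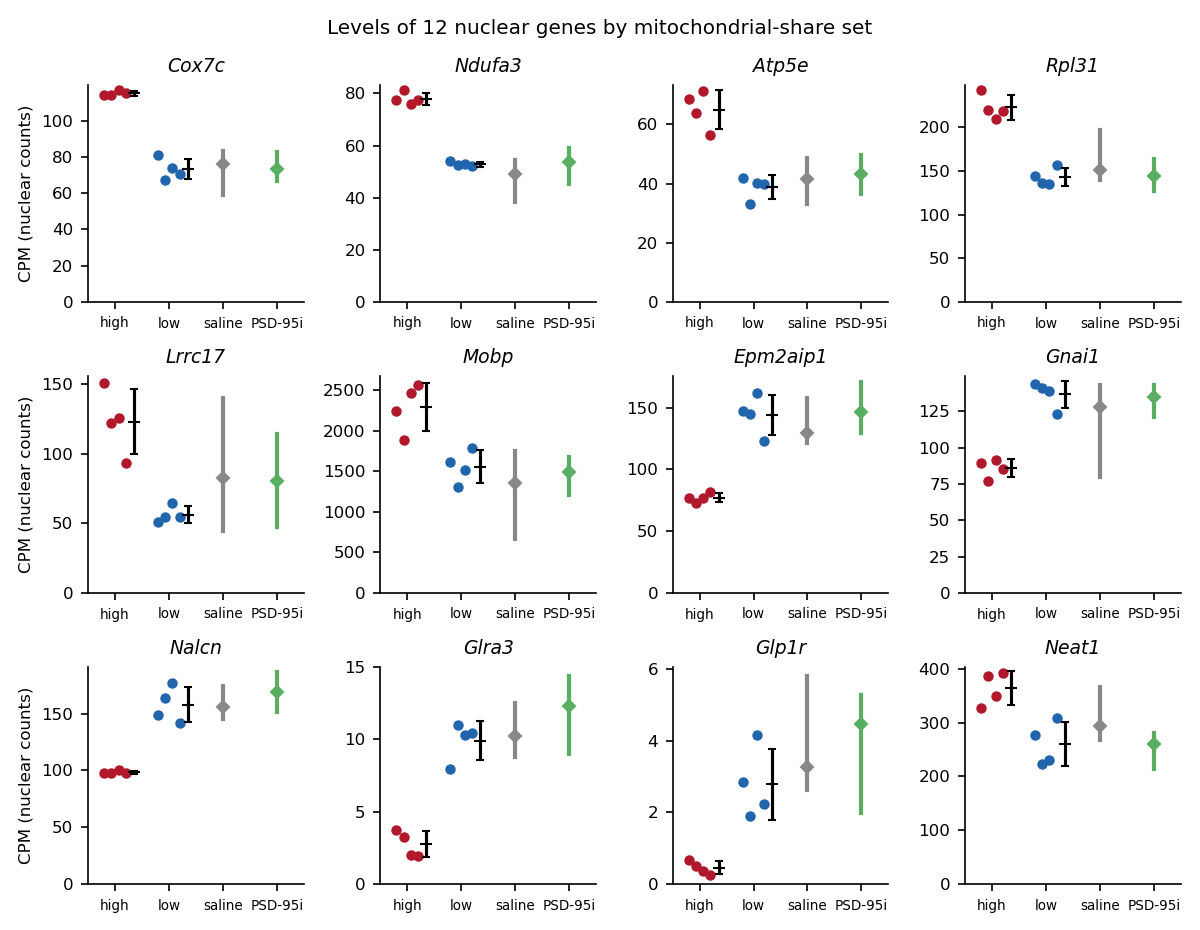
Levels of 12 nuclear genes in CPM, on axes that start at 0, with each high and low PICK1i library as a point and mean ± SD in black, and the lowest, median and highest saline and PSD-95i libraries as a bar and diamond. Cox7c in the high set lies at 114 to 117 CPM, above all other libraries, while Nalcn in the high set lies at 97.5 to 100 CPM, below all of them.

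Of 32 long synaptic adhesion and channel genes, 14 fell (43.8%, beside 9.6% of all genes called lower) and 0 rose, with a median log2 difference of -0.269. The list mean was -0.238, -0.231, -0.229 and -0.076 in the high set and 0, 0.12, 0.14 and -0.065 in the low set, so only replicate 6 came near the low set. Grid1, a delta glutamate receptor subunit (-0.57), Ptprt, a receptor phosphatase (-0.62), and the adhesion proteins Opcml (-0.56) and Lsamp (-0.45) fell. Among 31 glutamate receptor and scaffold genes, which include the targets of both inhibitors, 4 fell and 0 rose, 12.9% beside the 9.6% of all genes called lower: Nos1 (-0.55), Dlg2 (-0.62), Gria1 (-0.28) and Nsf (-0.29). Pick1 itself was at 88.5, 75.2, 95.1 and 91.8 CPM in the high set and 75.3, 70, 61.9 and 78.3 CPM in the low set, with overlap. Its log2 difference of 0.30 ± 0.10 (SE) did not pass (adjusted p = 0.0515, edgeR), and Dlg4 differed by 0.14 ± 0.08 (SE, adjusted p = 0.262, edgeR).

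RNAs that are retained in the nucleus changed in both directions. Of 14 tested, 4 rose and 2 fell (42.9% called, beside 16.6% of all nuclear genes), with a median log2 difference of 0.236. Neat1, the scaffold RNA of paraspeckles (chr19:5824708-5845478), was at 327, 387, 349 and 393 CPM in the high set and 277, 224, 230 and 309 CPM in the low set. The sets did not overlap, the log2 difference was 0.49 ± 0.11 (SE, adjusted p = 0.0123, edgeR), and saline libraries ranged from 267 to 366 CPM, so they overlapped with both. Rmst (0.65) and Mirg (0.35) rose as well, while Tug1 (-0.55) fell. Splicing factors and RNA-binding proteins rose in 6 of 32 cases (18.8%, beside 6.99% of all genes called higher) and fell in 0, with a median of 0.140. They included Rbm5 (0.30), Clk1 (0.37), a kinase of splicing factors, Rbm3, a cold-inducible protein (0.38), and U2af1 (0.33).

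Of 32 feeding and energy balance genes 2 rose and 2 fell, which is 12.5% and near the 16.6% of all nuclear genes. The falls include Glp1r, which passed the count filter only through the low set. Agrp was at 8.38, 8.49, 3.67 and 0.245 CPM in the high set and 4.49, 5.35, 4.51 and 4.59 CPM in the low set, with 1 count in replicate 6. Npy was at 92, 76.2, 49.4 and 46 CPM and 46, 45.3, 31.5 and 49.9 CPM, and Pomc at 255, 215, 141 and 9.05 CPM and 133, 115, 98.4 and 113 CPM. For all 3, replicates 1 and 2 were the highest PICK1i libraries and the sets overlapped, with adjusted p of 0.831, 0.0555 and 0.598 (edgeR). Cartpt differed by 0.44 ± 0.18 (SE, log2, adjusted p = 0.114, edgeR). Tac2, which encodes neurokinin B, rose by 0.52, and Penk, which encodes enkephalins, by 0.32. With the length and GC offset Tac2 (0.19, adjusted p = 0.334) and Penk (0.11, adjusted p = 0.466) no longer passed by edgeR.

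The genes of this list called lower were Glp1r and Ghsr, which encode receptors, and no pattern is drawn from them. Glp1r, the receptor for glucagon-like peptide 1 (chr17:30901817-30940791), had 3, 3, 2 and 1 counts in the high set and 19, 12, 35 and 16 in the low set. Its level was 0.662, 0.509, 0.367 and 0.245 CPM against 2.84, 1.89, 4.15 and 2.22 CPM, with no overlap, and saline libraries had 2.61 to 5.79 CPM. Summed over libraries these are 9 and 82 counts, a ratio of 0.157 of the level in the low set, with a 95% exact interval of 0.0692 to 0.312 that covers counting error only. The adjusted p was 0.00428 by edgeR. Glp1r passed the count filter (minimum count 10) only through the low set, so this p is not used as support. Ghsr, the ghrelin receptor, had 85 and 239 counts in the sets, a log2 difference of -0.98 ± 0.23 (SE, adjusted p = 0.014, edgeR). Its levels of 3.97, 5.43, 4.59 and 2.45 CPM in the high set lay below the 6.59, 9.6, 9.01 and 8.06 CPM of the low set. With the length and GC offset Ghsr (-0.77, adjusted p = 0.0649) no longer passed by edgeR.

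Replicate 6 stood apart in markers of brain regions. The cortex and hippocampus list, as mean log2 CPM relative to 24 libraries, was 1.497 in replicate 6 and -0.235 to -0.01 in the other 7 PICK1i libraries. Slc17a7, the vesicular glutamate transporter of cortex, was at 289 CPM in replicate 6 and 1.26 to 4.22 CPM in the others, and its log2 difference of 5.46 ± 1.49 (SE) became 1.317 without replicate 6 (adjusted p = 0.00595, edgeR). Nrgn, a postsynaptic calmodulin-binding protein, changed from 0.98 to 0.469 (adjusted p = 0.0039, edgeR). In the same library the arcuate and ventromedial list was at -1.47, the ependymal list at -0.913 and the paraventricular list at -0.746, with -0.042 to 0.257, -0.069 to 0.391 and -0.123 to 0.225 in the other PICK1i libraries. Without replicate 6 the number of genes called between the sets was 3595 in place of 2516, and 2370 genes were called in both with the same direction.

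Myelin markers were partly higher, with 6 of 28 rising (21.4%, beside 6.99% of all genes called higher) and 0 falling and a median of 0.212. The list mean was 0.084, 0.147, 0.252 and 0.445 in the high set and 0.053, -0.231, 0.162 and 0.119 in the low set, with overlap, and saline libraries ranged from -0.796 to 0.289. Mobp, a myelin structural protein (chr9:120149707-120181484), was at 2240, 1890, 2460 and 2560 CPM in the high set and 1610, 1310, 1520 and 1790 CPM in the low set. The sets did not overlap and the log2 difference was 0.56 ± 0.11 (SE, adjusted p = 0.00906, edgeR), while Mog, a myelin surface glycoprotein (0.28, adjusted p = 0.0892, edgeR), did not pass. Among 23 astrocyte markers 3 rose, among them Fabp7 (0.67) and S100b (0.36), and 3 fell, among them the bicarbonate transporter Slc4a4 (-0.71). That is 26.1% called, beside 16.6% of all nuclear genes. Microglia markers had 1 of 22 higher (4.55%), C1qa (0.31), and endothelial markers 1 of 20 (5%), both below the 6.99% of all genes called higher. The leptomeningeal list mean varied from -1.04 to 1.324 over the 8 libraries and the red blood cell list from -0.399 to 1.59, highest in replicate 6, with overlap between the sets. Whether any of these contents take part in the difference between the sets was not tested.

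**Figure D3:**
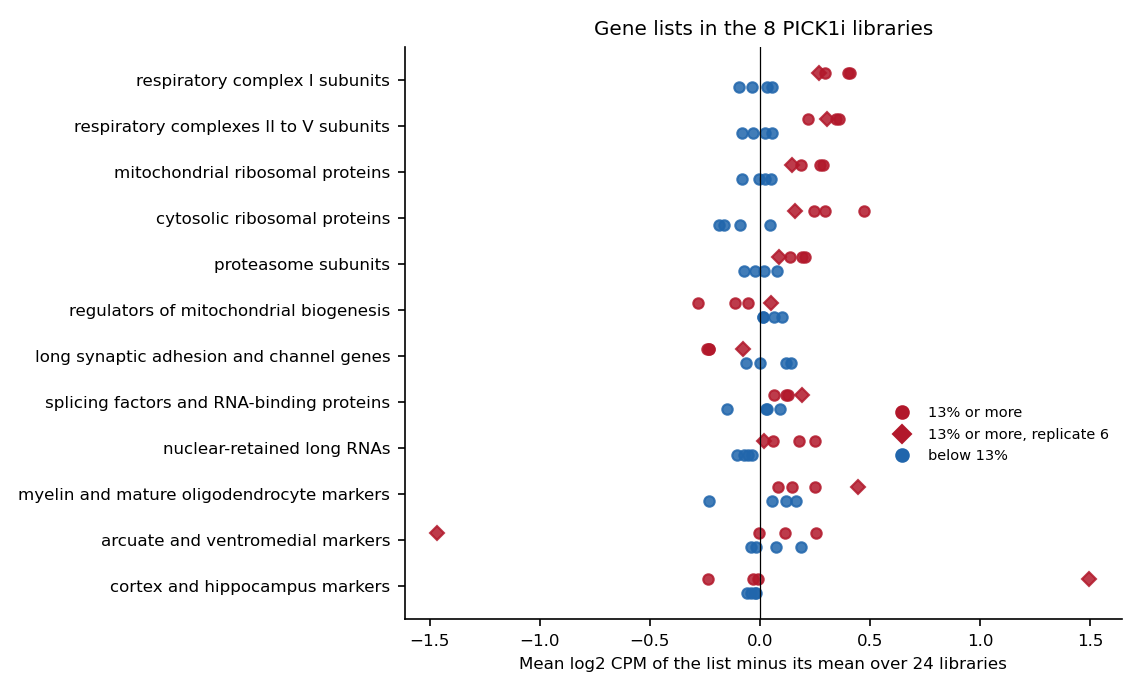
Mean log2 CPM of 12 gene lists in each PICK1i library, relative to the mean over 24 libraries, with the high set in red, the low set in blue and replicate 6 as a diamond. The high set lies to the right of the low set for respiratory subunits, and replicate 6 alone stands out at 1.497 for cortex and hippocampus markers and at -1.47 for arcuate and ventromedial markers.

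Calls followed transcript length. Genes called higher had a median transcript length of 1213 bases, genes called lower 4682 bases and all tested genes 2785 bases. When tested genes were cut into 10 equal groups by length, the shortest group (123 to 1051 bases) had a median log2 difference of 0.353, with 452 genes higher and 19 lower. In the longest group (5872 bases or more) it was -0.213, with 27 higher and 410 lower. GC content moved with it: the median was 54.1% in genes called higher and 47% in genes called lower. The respiratory complex I genes had a median length of 819 bases, the cytosolic ribosomal genes 765 and the long synaptic genes 6553, so length and function are tied in these lists.

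An offset that removes each library's smooth trend with length and GC content reduced the genes called from 2516 to 810 (373 higher and 437 lower), of which 610 were among those called before with the same direction. The median difference of complex I subunits fell from 0.381 to 0.096, with 2 of 37 higher, and that of complexes II to V to 0.068, with 7 of 43 higher. Cytosolic ribosomal proteins went to 0.114, with 7 of 78 higher, and long synaptic genes to -0.068, with 2 higher and 2 lower of 32. Nuclear-retained RNAs went from 0.236 to 0.285, with 6 of 14 higher and 0 lower, and splicing factors from 0.140 to 0.201, with 7 of 32 higher. Single genes also differed in what remained. Lrrc17 stayed at 1.10 (adjusted p = 0.0028), Gpr165 at -1.78 (adjusted p = 0.00377), Neat1 at 0.67 (adjusted p = 0.017) and Mobp at 0.57 (adjusted p = 0.021), whereas Ndufa3 went to 0.13 (adjusted p = 0.414) and Cox7c to 0.31 (adjusted p = 0.0558), all by edgeR.

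**Figure D4:**
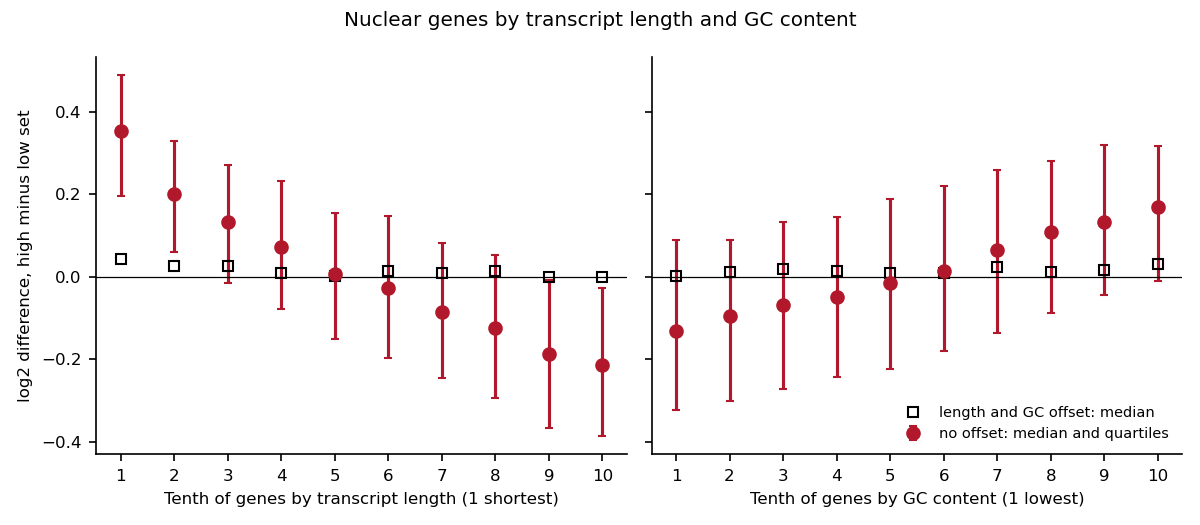
Median log2 difference between the sets (high minus low) in 10 equal groups of nuclear genes by transcript length and by GC content, with quartiles as red bars and the median after the length and GC offset as open squares. Without the offset the median runs from 0.353 in the shortest group to -0.213 in the longest, and with it the shortest group is at 0.044. The offset is fitted to each library's own trend with length and GC content, so its flat medians follow from how it is built.

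The tilt with length can be given for each library as the slope of its log2 deviations on log2 transcript length. It was -0.1752, -0.133, -0.1585 and -0.103 (log2 per doubling of length) in the high set and 0.0007, 0.0293, 0.0701 and -0.0296 in the low set. Saline libraries lay between -0.02 and 0.0532 and PSD-95i libraries between -0.0075 and 0.092, so the high set lay below all other libraries. The difference of -0.16 had p = 0.0286 by an exact two-sided permutation test over the 70 ways of choosing 4 of 8 libraries, which is the smallest p possible there, and 0.0343 adjusted over 6 library measures. One of these, the total count, is the denominator of the share that chose the sets, so its difference is a description only. GC tilt (0.1396 per 10 points of GC), genes detected at equal depth (327.6 more) and the share of the 100 highest genes (1.929 percentage points more) gave the same p. Genes at equal depth were 20177 to 20611 in the high set and 20251 to 20823 in saline. The share of the 100 highest genes was 15.7% to 19.3% in the high set and reached 20.7% in saline. Unlike the length tilt, both thus overlapped with saline. The share of counts on retained-intron transcripts, 0.2038 points higher, had p = 0.114 by the same exact test. When consecutive library numbers were kept together only 6 assignments exist, and each of the other 5 measures had p = 0.333 by the exact test, the smallest possible.

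Lengths compared within genes went the other way. For 2879 genes with at least 2 transcripts of 20 or more mean counts, the longest at least 2 times the shortest, the log2 ratio of the shortest over the longest transcript was taken in each library. Relative to the PICK1i mean, its median was 0.001, -0.038, -0.101 and -0.17 in the high set and 0.104, 0.101, 0.181 and -0.008 in the low set. The sets overlapped only by replicates 1 and 8. The short transcript had the larger share in the high set for 914 genes (31.7%), with a median difference of -0.176, whereas short genes were higher when genes were compared with each other. The assignment of reads to transcripts is itself an estimate.

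The consecutive pairs gave unequal numbers of calls. Replicates 1 and 2 against 3 and 4 gave 2204 called genes, and replicates 5 and 6 against 7 and 8 gave 71, of which 48 were called in all 8 libraries with the same direction. The list medians were nearer to each other: complex I subunits differed by 0.392 and 0.354 (log2), complexes II to V by 0.341 and 0.384, and cytosolic ribosomal proteins by 0.505 and 0.306. Cox7c differed by 0.625 (adjusted p = 0.00371) and 0.679 (adjusted p = 0.0701, edgeR). All 2516 genes called in the 8 libraries kept their sign in each of these comparisons, which are parts of the same data. A test of the difference between them, as an interaction term, called 4 genes.

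The saline and PSD-95i libraries, which the 13% rule did not use, allowed a separate test of nuclear genes against mitochondrial share. Their shares spanned only 7.88% to 10.68%. With treatment in the model, 0 of 16718 genes (0%) passed an adjusted p under 0.05 by edgeR, 2990 had an unadjusted p under 0.05, and DESeq2 called 65 and limma-voom 431. The smallest adjusted p was 0.0531, for Nr4a1, an immediate early gene, with a slope of -0.76 (log2 per percentage point of share). Without saline replicates 2 and 3, which carried pituitary RNA, edgeR called 2 genes, Cic and Gh, both lower with a higher share, and 1160 genes had an unadjusted p under 0.05. Gh is a pituitary hormone gene. Leaving out saline replicate 3 alone gave 1128 calls, PSD-95i replicate 3 alone 30 and PSD-95i replicate 4 alone 1, and leaving out any other single library gave 0. Of the 2516 genes called between the PICK1i sets, 47.1% had a slope of the same sign in the 16 libraries, against 48.5% of all genes tested. Without saline replicates 2 and 3 these were 69.6% and 57.5%, in saline alone 40.4% and 45.8%, and in PSD-95i alone 66.4% and 56.1%. Genes share libraries, so these shares are descriptions without a test.

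Length tilt and mitochondrial share had no clear relation in those libraries. Over 16 libraries Pearson's r was 0.055 (p = 0.834, permutation test) and Spearman's rho -0.176 (p = 0.513), and r was -0.579 without the 2 libraries farthest from the median share. Over 14 libraries, without saline replicates 2 and 3, r was -0.472 (p = 0.0888, permutation test, 0.276 adjusted over 4 relations), rho was -0.477 (p = 0.0868), and r was -0.604 without the 2 farthest. Within saline r was 0.567 (p = 0.138, permutation test) and rho 0.31 (p = 0.464), with r at 0.132 without the 2 farthest. Within PSD-95i r was -0.464 (p = 0.241, permutation test) and rho -0.452 (p = 0.268), with r at -0.598 without the 2 farthest. The sign thus differed between the groups, and no value passed.

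**Figure D5:**
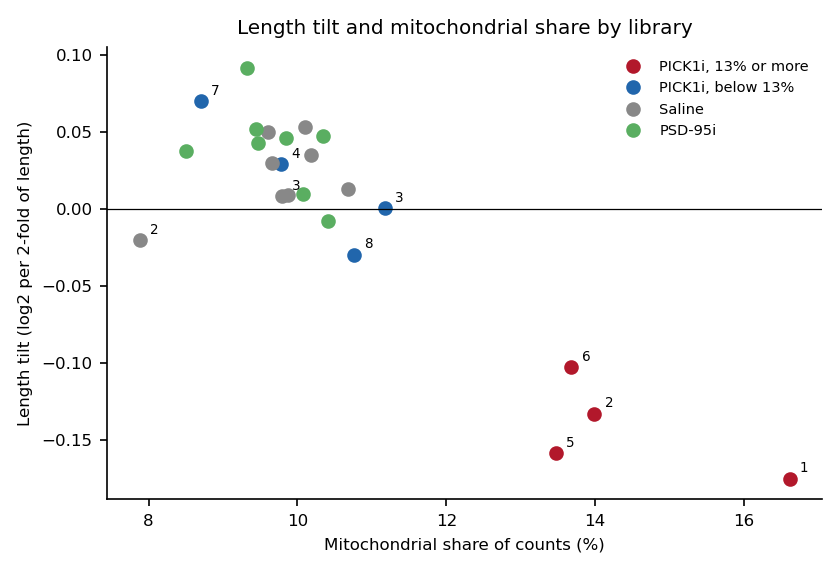
Length tilt (log2 per doubling of transcript length) against mitochondrial share (%) in 24 libraries, with replicate numbers beside PICK1i libraries and saline replicates 2 and 3. The 4 high PICK1i libraries lie apart at a tilt of -0.1752 to -0.103, and all others lie between -0.0296 and 0.092.

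Set against the other groups in a fit of all 24 libraries, the high set differed from saline in 5183 of 16244 genes (31.9%) and from PSD-95i in 5161 (31.8%) by edgeR. The low set differed from saline in 0 genes, with 1846 at an unadjusted p under 0.05, and from PSD-95i in 0 genes, with 467 at an unadjusted p under 0.05. Without saline replicates 2 and 3 the numbers were 5668 and 6278 for the high set and 0 and 0 for the low set, the last with 1052 and 782 at an unadjusted p under 0.05. The comparisons share the saline or PSD-95i libraries, so the counts are not independent of each other. In the high set, genes above saline had a median transcript length of 1604 bases and genes below it 4434 bases.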

How the data were processed

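The authors deposited estimated counts per gene and per transcript, made from 52-base paired reads. Per the submitters' processing notes the tools were bcl2fastq 2.20.0, STAR and Salmon on GRCm38, without further versions or options; which annotation was used is not stated there. A tolerance of 0.001 made 94.3% of gene-level entries whole numbers. Estimated counts were rounded. Nuclear genes were filtered by filterByExpr (minimum count 10, keeping 99.7% of nuclear counts), scaled by TMM and tested by edgeR 4.0.16 (R 4.3.3, limma 3.58.1, DESeq2 1.42.0) with 6 residual degrees of freedom between the sets and 13 in the saline and PSD-95i fit. Lengths and GC content came from GENCODE M21, which held 45143 of 45706 gene identifiers, and are means over a gene's transcripts weighted by count. CPM were relative to nuclear totals. Log2 CPM used a prior count of 2.

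The sets, the 44 gene lists and the rules were chosen with earlier results of these data known. Genes named were the 12 higher and 12 lower called genes of smallest p whose mean reached 1 CPM (clone and model names skipped), 9 fixed genes (Pick1, Dlg4, Esrra, Ppargc1a, Tfam, Agrp, Npy, Pomc, Cartpt), up to 4 members of each list with the smallest p, and markers. A test on simulated data for the 4 against 4 comparison recovered 77.8% of 2-fold changes and 32% of log2 changes of 0.5, with 6.84% of calls false. For the 16 libraries, at slopes per percentage point of those sizes, it recovered 96% and 71.4%, with 5.68% false. Smaller slopes were not simulated. Genes called between the sets differed by a median of 0.429 (higher) and 0.447 (lower) over 4.34 percentage points, which is a smaller slope. Recovery at slopes of that size is therefore not known. No 2 libraries were identical. The alternatives are in the closing section.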

Additional observations from a re-analysis of the deposited data

Results flagged for a closer look

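Of 236 groups of values examined for a library far from the others of its set or group, 11 held one, and chance alone flags about 1 in 20 groups. Among library measures these were the mitochondrial share of PICK1i replicate 1 (16.6%, next 14%) and of saline replicate 2 (7.88%, next 9.6%). PICK1i replicate 8 of the low set was apart in GC tilt (0.0316, next -0.0321) and in the share of retained-intron transcripts (6.15%, next 5.92%). Replicate 6 of the high set was apart in Slc17a7 (289 CPM, next 4.22) and Nrgn (626 CPM, next 252), both cortex markers. Replicate 1 was apart in C1qa, a complement gene of microglia (108 CPM, next 87.8), and Slc4a4 (127 CPM, next 143). The other 3 were Nalcn in replicate 5 (100 CPM, next 97.6), Agrp in replicate 4 (5.35 CPM, next 4.59) and Slirp in replicate 7 (31.5 CPM, next 33), each within a narrow set.

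The difference between the sets was not the same in replicates 1 to 4 as in replicates 5 to 8 for 4 genes, by the interaction term in edgeR (adjusted p = 0.0325 for each). As the log2 difference in replicates 5 to 8 minus that in replicates 1 to 4, these were Olfm3 (1.56), Nbl1 (-1.51), Ahnak (-1.42) and Erdr1 (1.93), named after their values were seen.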

How the results depend on the processing

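The 2516 genes called between the sets became 2376 to 3248 under 10 other settings (other scaling, filters, tools, library sets or share as a number). They became 810 with the length and GC offset, 71 for replicates 5 and 6 against 7 and 8, 975 without replicates 1 and 2, and 988 (without replicate 7) to 3595 (without replicate 6) when single libraries were left out, with 1164 without replicate 4 and 1351 without replicate 5. After seeing the data, thinning to equal nuclear depth gave 2181, and length tilt as a covariate gave 0, with 531 at an unadjusted p under 0.05 by edgeR. The tilt was computed from these same nuclear counts and did not overlap between the sets. A fit of 8 libraries can therefore hardly separate set from tilt, and no conclusion is drawn from its lost calls or reversed signs. With the tilt covariate the medians were 0.095 for complex I, 0.129 for complexes II to V and -0.044 for cytosolic ribosomal proteins, and with the offset 0.096, 0.068 and 0.114. With the tilt covariate signs reversed for Hsd17b10 (-0.161), Prkaa2 (0.104), Nrip1 (0.118), Mt1 (-0.028), Mt3 (-0.099), Opa1 (0.037), Psmb6 (-0.078), Ptprt (0.161), Opcml (0.18), Npas4 (-0.014), Gadd45g (-0.401), Sim1 (0.035), Nptx1 (0.127), Pcsk2 (0.177), Uchl1 (-0.102), Dlg2 (0.096) and Nsf (0.149), and, not called at first, for Pick1 (-0.073), Ppargc1a (0.354), Agrp (-0.911), Npy (-0.549), Pomc (-1.697) and Cartpt (-0.481). Tfam reversed with the offset (0.042). Agrp also reversed with voom (-0.452), voom with pairs (-0.456), the offset (-0.206), without replicate 1 (-0.099), without replicate 2 (-0.184; range with single libraries left out -0.184 to 0.543), in replicates 5 to 8 (-1.092), without replicates 1 and 2 (-1.14) and thinned (-0.001), and Pomc with voom (-0.26), voom with pairs (-0.262), in replicates 5 to 8 (-0.477) and without replicates 1 and 2 (-0.576). The cause was not tested.

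With pairs kept together the library differences had the same values (327.6 genes, -0.16, 0.1396 and 1.929 points). None could pass there, because the smallest p possible by the exact test was 0.333. The total count (-2099000) entered the rule that chose the sets and is a description only. When single libraries were left out, total counts ranged from -2401000 to -1673000, genes at equal depth from 263.4 to 408, length tilt from -0.1758 to -0.1426, GC tilt from 0.1242 to 0.156 and the top 100 share from 1.195 to 2.4.

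In the 16 other libraries the 0 calls became 2 without saline replicates 2 and 3, 5 unfiltered, 65 with DESeq2, 431 with voom, 1 in saline alone, and 0 to 1128 when single libraries were left out (1128 without saline replicate 3, 30 without PSD-95i replicate 3). The same-sign share of 47.1% was 69.6% without saline replicates 2 and 3, 40.4% in saline, 66.4% in PSD-95i and 43.2% to 66.7% when single libraries were left out, with 66.7% without saline replicate 2. With the replicate number as a block it was 58.6%, with 0 genes called and 253 at an unadjusted p under 0.05. Replicate numbers carry no stated pairing. Between the sets no paired analysis was possible because they share no replicate numbers. Consecutive numbers as a random block gave 2898 calls (correlation -0.047), and within-set deviations correlated at -0.292 to -0.031 for consecutive and -0.602 to -0.19 for other pairs.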
